A study of Mus musculus with 10 samples.

Results

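The 61 solute carrier probe sets described here, 1 for each of 61 genes, were chosen from 22206 probe sets on liver arrays of mice fed a control diet or an iso-α-acids diet. They carry a gene symbol that begins with Slc and a digit or with Slco, and their SD over the 10 arrays was at least 0.001 on the log2 scale. Of 375 probe sets with such symbols on the array, 55 were left out by name, 46 of them mitochondrial Slc25a carriers and 9 other transporters. Of the remaining 320, the other 259 were flat, with an SD under 0.001. The flat ones include Slc9a3r1 and Slc9a3r2, which are scaffolds and not carriers. The members were thus selected on the spread of the same values that are compared here, and a large difference between diets is by itself enough to pass that threshold. Their SD over the 10 arrays ran from 0.00246 to 0.834, with a median of 0.222. Just inside the threshold lay Slc6a6 (SD 0.00246), Slc43a1 (0.00267) and Slc33a1 (0.00295), and just outside it Slc44a1 (0.000454), Slc15a4 (0.000449) and Slc22a15 (0.000368).

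All 10 livers came from male C57BL/6N mice, each hybridised to its own Clariom S Mouse Array. The labels give an age of 8 weeks, which by the methods was that at purchase, before a week on the plain diet and the week on the test diet. In the iso-α-acids diet group (n = 5), the purified AIN-93G diet held 0.5% (w/w) of iso-α-acids, the bitter acids that hops give to beer, for 1 week. The control diet group (n = 5) was pair-fed AIN-93G without them. Acetaldehyde was injected i.p. at 200 mg/kg into every mouse 5 h before the liver was taken, so that no liver here was free of it. The authors picked the 5 arrayed mice of each group out of 10 as representative by their serum enzymes, and the arrays are therefore no random draw.

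Solute carriers are membrane proteins that move small molecules along or against a gradient without splitting ATP. In the liver they pass glucose, amino acids, fatty acids, lactate, bile acids, urate, drugs, metals and vitamins between blood, hepatocyte and bile, and others work inside the cell, where they supply the endoplasmic reticulum or empty the lysosome. Many of them exchange one substrate for another, and some need a partner protein to reach the membrane.

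The label of cell-surface carriers fits these genes only in part. By what is known of the proteins, 11 of the 61 act on an intracellular membrane, 4 of these on endosomes and lysosomes (Slc48a1, Slc15a3, Slc49a4 and Slc46a3), and 50 were not assigned to one. Substrate classes were assigned largely by gene family, so they hold some members of unknown substrate, such as Slc15a5. There were 14 under organic anions and cations, urate or bile acids, and 12 under amino acids or peptides. Metals or heme held 6, and fatty acids or acetyl-CoA 2. A further 5 each were placed under inorganic ions, sugars, nucleosides and vitamins, or creatine, osmolytes and neurotransmitters. Carboxylates held 4 and nucleotide sugars 2, and Slc43a3 was left unassigned. The share that varied differed among these classes, from 2 of 25 probe sets for nucleotide sugars to 14 of 46 for organic anions and cations, urate and bile acids.

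Values are summarized levels of the whole liver. They were read as log2, since they ran from 4.94 to 13.37 and the log base is not stated. A lower value in such bulk RNA cannot tell fewer cells of a type from less RNA per cell. The summary method, qFARMS, pulls a probe set to a constant where its probes show no shared variation. The 259 flat Slc and Slco probe sets therefore show neither a change nor its absence. The members just inside the threshold, Slc6a6, Slc43a1 and Slc33a1, varied far less than the median member. Their small differences do not show the absence of a change either. Hepatocyte markers (10 genes) summed to 16.02 to 16.10 on the log2 scale in the control diet group and to 16.00 to 16.09 in the iso-α-acids arrays, and 0 of the 10 passed limma's test. Of the 10, 6 varied, and the flat Alb, Apoa1, Serpina1a and Ttr hold much of this sum constant. The markers of neutrophils and of lymphocytes were flat on every array.

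A pair of carriers was upregulated in the iso-α-acids diet group, the lysosomal heme transporter Slc48a1 and the fatty acid transporter Slc27a1, and limma called 0 downregulated. The other 59 did not pass limma's test at an adjusted p under 0.05, with p-values adjusted over all 22206 probe sets. At an unadjusted p under 0.05, 7 were higher in the iso-α-acids diet group (11.5% of the members, against 22.6% of varying probe sets) and 14 lower (23%, against 14.6%). A rerun of rank products, the test of the study, called more carriers in both directions and is given at the end. The 2 calls made up 3.28% of the members. Among all probe sets limma called 0.59% higher and 0.171% lower, and among the 2439 varying probe sets 5.13% higher and 1.07% lower. Levels of the diet groups did not overlap in 14 carriers. Of these, 6 were higher with iso-α-acids (9.84% of the members, against 12.1% of varying probe sets) and 8 lower (13.1%, against 7.3%). The differences ran from -1.10 to 0.94, with 28 above and 33 below 0. Their median was -0.002, against 0.007 over varying probe sets, and the median of their absolute size was 0.17, against 0.13.

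**Figure D1:**
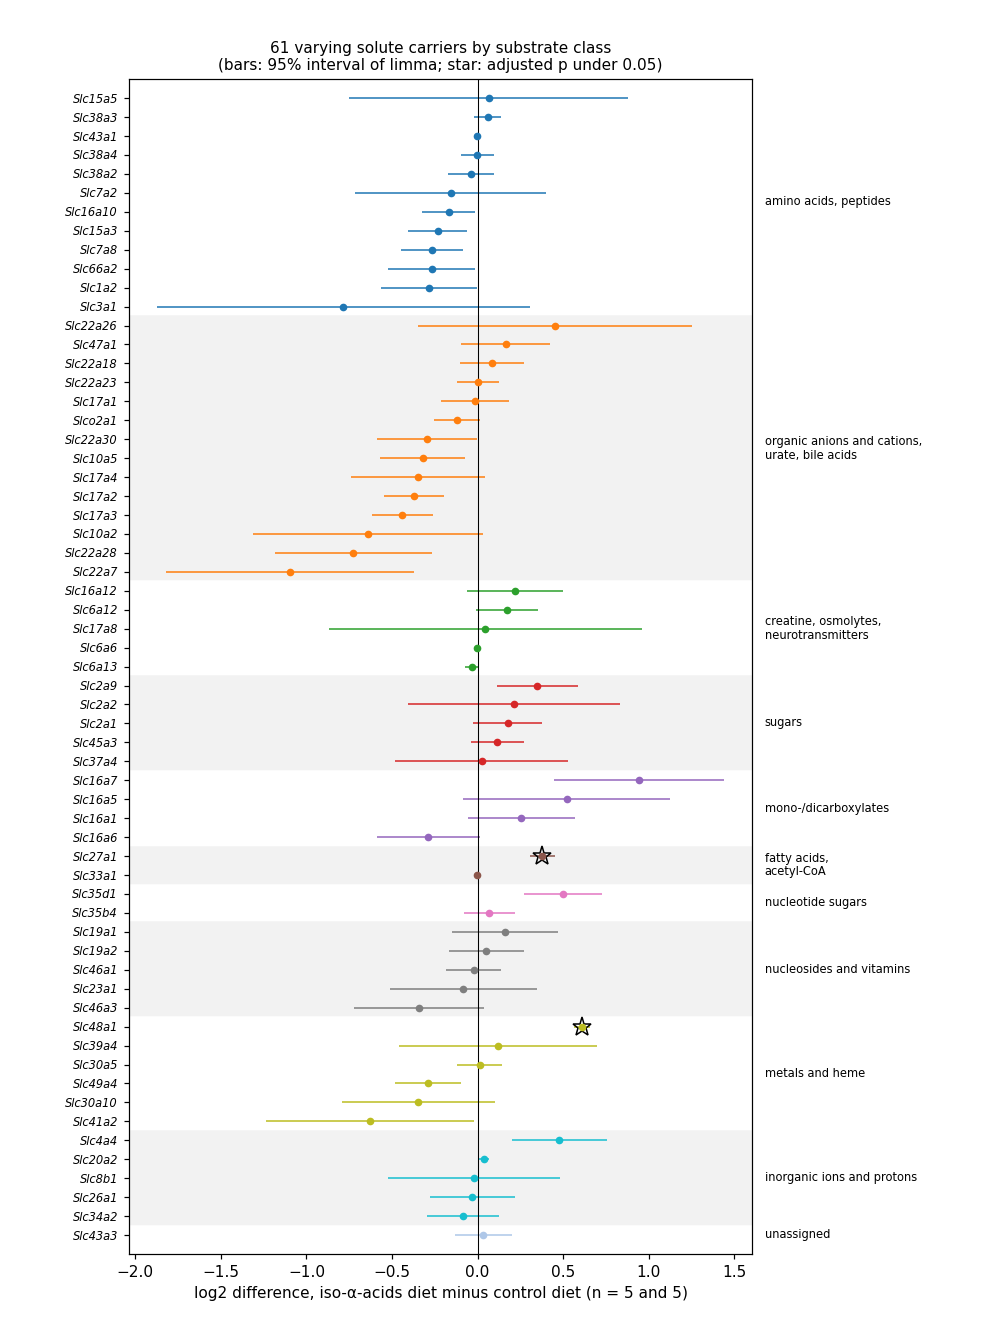
The log2 difference of each of the 61 carriers, iso-α-acids diet minus control diet (points, n = 5 and 5), with the 95% interval of limma (bars), grouped by substrate. Stars mark Slc48a1 and Slc27a1, the 2 that passed limma's test, and most of the points for organic anions and for amino acids lie left of 0.

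In the iso-α-acids diet group, replicate 1 stood apart from its group, and this bears on every count here. It was the highest or the lowest of all 10 arrays in 44 of the 61 carriers (1522 of 2439 varying probe sets). It lay over 0.5 from the mean of replicates 2 to 5 in 23 carriers (591 of 2439 varying probe sets). It lay over 1 from that mean in 10 carriers (209 of 2439). The SD within the iso-α-acids diet group had a median of 0.18 over the carriers with this array and of 0.075 without it, against 0.11 in the control diet group. Without it limma called 8 carriers higher (13.1% of the members, against 13% of varying probe sets) and 3 lower (4.92%, against 4.26%). The groups then did not overlap in 8 higher carriers (13.1%, against 24.4%) and 11 lower ones (18%, against 12.7%). Control replicate 3 departed from its group in fewer carriers, over 0.5 in 9 and over 1 in 5. In 7 of the 10 carriers in which iso-α-acids replicate 1 departed by over 1, it departed in the same direction as that array.

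**Figure D2:**
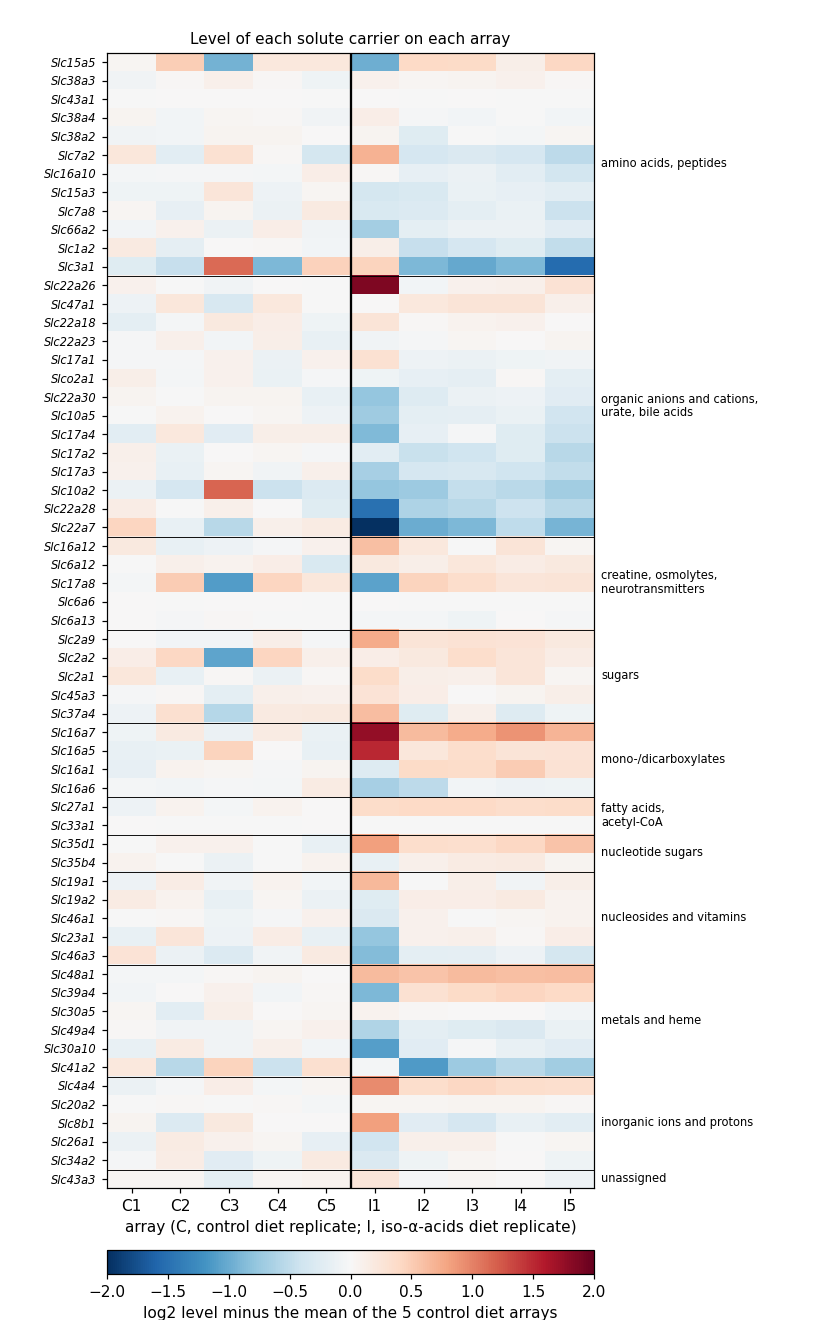
The log2 level of each of the 61 carriers (rows, by substrate) on each array (columns C1 to C5, control diet, and I1 to I5, iso-α-acids diet) minus the mean of the 5 control arrays. Column I1, iso-α-acids replicate 1, holds the strongest colours of the iso-α-acids diet group in many rows, and column C3, control replicate 3, stands out in Slc3a1, Slc10a2, Slc2a2, Slc15a5 and Slc17a8.

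Slc48a1, also known as HRG1, carries heme out of endosomes and lysosomes into the cytosol and is best known for recycling heme from ingested red cells in macrophages. Its log2 level in control replicates 1 to 5 was 8.90, 8.89, 8.95, 8.98 and 8.94. In iso-α-acids replicates 1 to 5 it was 9.57, 9.50, 9.57, 9.54 and 9.55. Every iso-α-acids array lay above every control array, and replicate 1 was in the range of its group. The mean rose from 8.93 ± 0.037 (SD, n = 5) to 9.55 ± 0.028 (SD, n = 5). The log2 difference was 0.61 (standard error (SE) 0.020, 95% interval 0.57 to 0.66, limma adjusted p = 2.03e-06), or 1.53-fold. Over the 10 fits that each left out 1 array, the adjusted p ran from 1.3e-05 to 3.22e-05. The summed level of markers of Kupffer cells and other macrophages was lower in the iso-α-acids arrays. It was 11.12 to 11.58 in the control diet group and 10.81 to 11.08 in the iso-α-acids arrays, and 7 of the 9 measured varied. Limma called 0 of the 9, their median log2 difference was -0.32, and their part in the level of Slc48a1 was not tested. The one erythroid marker measured, Alas2, which starts heme synthesis in red cell precursors, was at 9.47 to 9.85 in the control diet group and 9.25 to 9.41 in iso-α-acids replicates 2 to 5, with replicate 1 at 7.45. Its difference was -0.68 (SE 0.38, limma adjusted p = 0.639), and its part was not tested either.

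Slc27a1 (FATP1) takes up long-chain fatty acids and joins them to coenzyme A, and it is best known in muscle and fat. Its log2 level in control replicates 1 to 5 was 7.11, 7.28, 7.18, 7.28 and 7.22. In iso-α-acids replicates 1 to 5 it was 7.58, 7.62, 7.62, 7.57 and 7.58. The groups did not overlap, and the iso-α-acids arrays lay closer together than the controls. The mean rose from 7.21 ± 0.070 (SD, n = 5) to 7.59 ± 0.023 (SD, n = 5). This was a log2 difference of 0.38 (SE 0.032, 95% interval 0.30 to 0.45, limma adjusted p = 0.0017), or 1.3-fold. Over the 10 fits that each left out 1 array, the adjusted p ran from 0.0014 to 0.00998. The other carrier of its class, Slc33a1, which brings acetyl-CoA into the endoplasmic reticulum, was among the least varying members. It lay at 8.83 in the control and 8.82 in the iso-α-acids diet group, with a difference of -0.004 (SE 0.0014, limma adjusted p = 0.336).

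The sequences just upstream of the genes are shown for the 4 members with the lowest adjusted p among those with an entry in the promoter table, since the called Slc27a1 is among them and Slc17a3 and Slc17a2 are direct neighbours on chromosome 13. They come from RefSeq (GRCm38.p6), are the 250 bases before the gene's start, read 5′ to 3′ on the gene's strand, and for Slc27a1, which has several starts, belong to the most upstream one. Capitals mark a match to the antioxidant response element, searched for as TGACNNNGC on both strands. Slc27a1 lies on the plus strand at chr8:71568621-71568870, Slc17a3 on the plus strand at chr13:23839184-23839433, Slc17a2 on the plus strand at chr13:23806743-23806992 and Slc35d1 on the minus strand at chr4:103215177-103215426.
Slc27a1: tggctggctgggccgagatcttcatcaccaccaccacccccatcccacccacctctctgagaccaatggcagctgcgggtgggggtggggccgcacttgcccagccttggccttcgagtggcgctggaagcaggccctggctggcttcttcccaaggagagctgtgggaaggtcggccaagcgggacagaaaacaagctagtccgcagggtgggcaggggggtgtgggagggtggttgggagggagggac
Slc17a3: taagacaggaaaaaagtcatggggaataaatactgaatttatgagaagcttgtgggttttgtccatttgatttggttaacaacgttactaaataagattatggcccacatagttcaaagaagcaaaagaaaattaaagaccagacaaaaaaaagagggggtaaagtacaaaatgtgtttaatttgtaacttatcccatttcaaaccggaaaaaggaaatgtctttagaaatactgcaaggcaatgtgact
Slc17a2: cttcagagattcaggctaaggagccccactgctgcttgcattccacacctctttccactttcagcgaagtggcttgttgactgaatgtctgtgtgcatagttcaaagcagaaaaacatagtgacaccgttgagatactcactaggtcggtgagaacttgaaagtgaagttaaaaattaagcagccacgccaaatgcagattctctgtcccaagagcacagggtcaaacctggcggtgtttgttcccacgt
Slc35d1: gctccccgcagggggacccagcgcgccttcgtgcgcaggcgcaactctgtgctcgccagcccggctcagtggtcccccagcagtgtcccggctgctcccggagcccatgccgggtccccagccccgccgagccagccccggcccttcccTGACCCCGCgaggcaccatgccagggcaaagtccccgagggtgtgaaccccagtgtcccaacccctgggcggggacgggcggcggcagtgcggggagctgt
Only the window of Slc35d1 among these 4 held this element, 101 bases before the start. Over the 43 member genes with an entry, 13 (30.2%) held it in any of their windows, against 11.5% of all 27025 genes in the table. Genes with several starts have several windows and so more chances of a match. Member genes were not matched to the other genes by their number of windows, and the share of member windows was not worked out. The nuclear receptor half-site AGGTCA stood before 9 of the 43 (20.9%, against 15.8% of genes). The HNF1 half-site GTTAAT stood before 3 (6.98%, against 7.49% of genes). Read on the other strand, AGGTCA is TGACCT and so shares its first letters TGAC with the antioxidant response element, and a site can match both. These shares describe letters only and were not tested. Slc48a1 and Slc16a7 had no entry in the table.

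Among carriers of lactate, pyruvate and related acids, 3 of 4 had a positive difference, and none passed limma's test with all arrays. Slc16a7 (MCT2), a high-affinity carrier of pyruvate and lactate, had the largest positive difference of the 61. Its log2 level in control replicates 1 to 5 was 8.54, 8.81, 8.52, 8.79 and 8.49. In iso-α-acids replicates 1 to 5 it was 10.39, 9.27, 9.37, 9.54 and 9.30. All iso-α-acids arrays lay above all control arrays, and replicate 1 lay 1.03 above the mean of the other 4. The log2 difference was 0.94 (SE 0.22, limma adjusted p = 0.129). Without replicate 1 it was smaller and passed, at 0.74 (SE 0.093, limma adjusted p = 0.00995, 1.67-fold). The range of adjusted p over the fits leaving out 1 array was 0.00995 to 0.276.

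Slc16a1 (MCT1), the widely used lactate and ketone body carrier, went the other way in that mouse. It was at 8.74 to 8.97 in the control diet group and at 9.18 to 9.40 in iso-α-acids replicates 2 to 5, but at 8.63 in replicate 1, below every other array. Its difference was 0.26 (SE 0.14, limma adjusted p = 0.621) with all arrays and 0.39 (SE 0.061, limma adjusted p = 0.0236) without replicate 1. Slc16a5 (MCT6), a relative known for carrying the diuretic bumetanide, was at 6.94, 6.96, 7.53, 7.09 and 6.93 in control replicates 1 to 5. Iso-α-acids replicates 1 to 5 were at 8.59, 7.32, 7.44, 7.36 and 7.36. Control replicate 3 lay among the iso-α-acids arrays, and iso-α-acids replicate 1 lay far above all others. The difference was 0.52 (SE 0.26, limma adjusted p = 0.591) with all arrays and 0.28 without iso-α-acids replicate 1. Slc16a6 (MCT7), a ketone body carrier in zebrafish liver, had the only negative difference of the class, -0.29 (SE 0.13, limma adjusted p = 0.537). In its iso-α-acids diet group, replicates 1 and 2 were at 6.95 and 7.09 and the other 3 at 7.51 to 7.57, beside 7.56 to 7.77 in the control diet group.

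**Figure D3:**
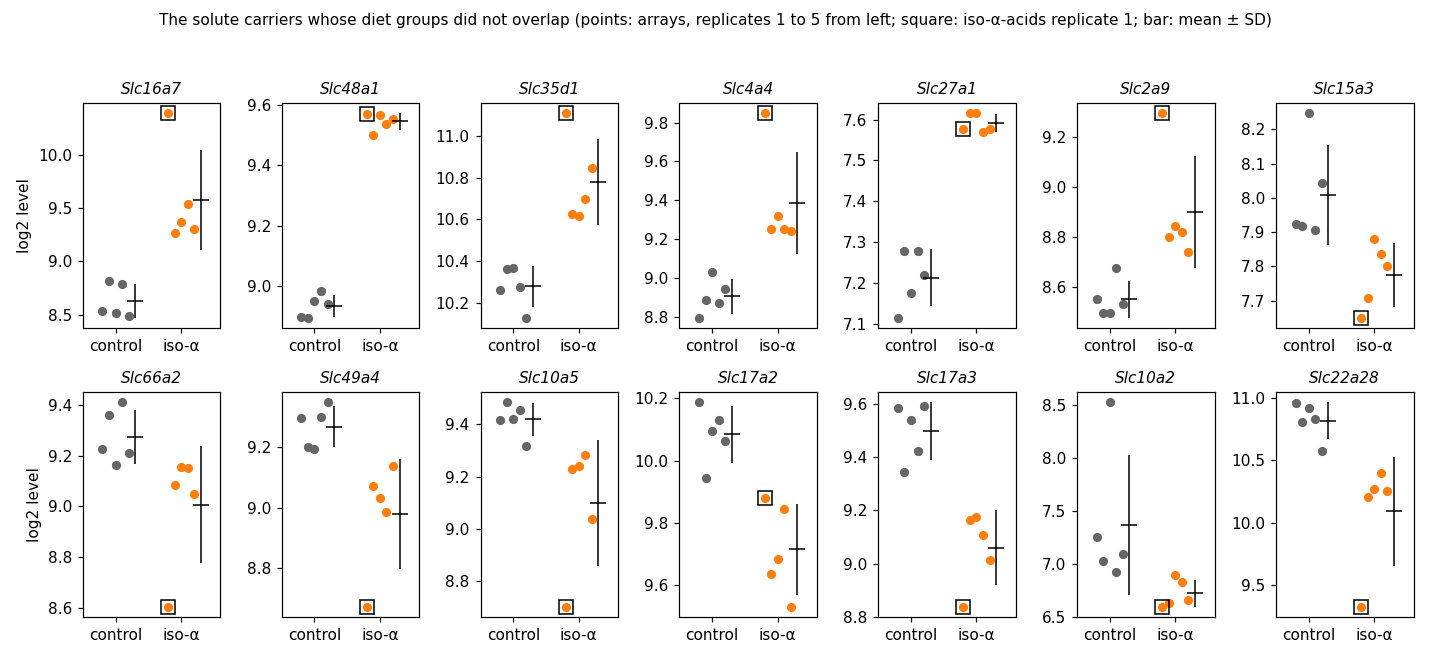
The log2 level on each array of the 14 carriers whose diet groups did not overlap (grey, control diet; orange, iso-α-acids diet; n = 5 and 5), each with its own axis, the mean and the SD beside the points. The square marks iso-α-acids replicate 1, which lies with its group in Slc48a1 and Slc27a1 and lies apart from the other 4 arrays in most other panels, by 1.03 in Slc16a7 and by 0.58 in Slc4a4.

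Slc35d1 brings UDP-glucuronic acid and UDP-N-acetylgalactosamine into the endoplasmic reticulum, where glucuronidation of drugs and bilirubin takes place. Its log2 level was 10.27, 10.36, 10.37, 10.28 and 10.13 in control replicates 1 to 5 and 11.11, 10.63, 10.62, 10.70 and 10.85 in iso-α-acids replicates 1 to 5. The groups did not overlap, and replicate 1 was the highest array. The difference was 0.50 (SE 0.099, limma adjusted p = 0.0846), 1.41-fold, and did not pass the threshold. Without replicate 1 it was 0.42 (SE 0.066) and passed, with an adjusted p of 0.0244, and the adjusted p ran up to 0.197 when other arrays were left out. The other nucleotide sugar carrier, Slc35b4 of the Golgi, had a difference of 0.07 (SE 0.065, limma adjusted p = 0.83).

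All 5 members of the sugar carrier families had a positive difference with all arrays, with a median of 0.18, and none passed limma's test. Slc2a2 and Slc37a4 turned negative when 1 array was left out. The only one without overlap between the groups was Slc2a9 (GLUT9), which despite its family carries mainly urate and takes it up into hepatocytes. Its log2 level was 8.55, 8.50, 8.50, 8.67 and 8.53 in control replicates 1 to 5 and 9.29, 8.80, 8.84, 8.82 and 8.74 in iso-α-acids replicates 1 to 5. Replicate 1 was the highest array, and the other 4 lay close above the controls. The difference was 0.35 (SE 0.10, limma adjusted p = 0.256), and without replicate 1 it was 0.25 (SE 0.041, limma adjusted p = 0.0262). Leaving out other arrays gave an adjusted p of up to 0.411.

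Slc2a2 (GLUT2) is the main glucose carrier of hepatocytes. It was at 12.12 to 12.33 in all 5 iso-α-acids arrays and at 12.08 to 12.41 in 4 control arrays, while control replicate 3 was at 10.92. Its difference of 0.21 (SE 0.27, limma adjusted p = 0.883) became -0.05 without that control. Slc37a4, which lets glucose 6-phosphate into the endoplasmic reticulum for glucose release, was also lowest in control replicate 3 (9.72, beside 10.19 to 10.61 in the other controls), and its difference was 0.02. Slc2a1 (GLUT1), a glucose carrier of many cell types, and Slc45a3 differed by 0.18 and 0.12, with overlapping groups.

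Of 14 carriers of organic anions and cations, urate and bile acids, 10 had a negative difference, and the median of the class was -0.31. None passed limma's test with all arrays, 6 of the 14 had an unadjusted p under 0.05, all lower, beside the 14.6% of varying probe sets given above, and 5 were lower without overlap, which held for 7.3% of varying probe sets. The urate carrier Slc2a9, given with the sugars by its family and higher in every iso-α-acids array, is not in these counts. The genes Slc17a2, Slc17a3, Slc17a1 and Slc17a4 follow each other on chromosome 13 with no protein-coding gene between them in the RefSeq annotation. They encode relatives of a sodium phosphate carrier that move urate and other organic anions. They did not share one pattern.

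Slc17a3 (NPT4) had the lowest adjusted p of the carriers with a negative difference. It was at 9.59, 9.35, 9.54, 9.43 and 9.60 in control replicates 1 to 5 and at 8.84, 9.17, 9.18, 9.11 and 9.01 in iso-α-acids replicates 1 to 5. All iso-α-acids arrays lay below all controls, with replicate 1 the lowest. The difference was -0.44 (SE 0.078, limma adjusted p = 0.0541), just short of the threshold. Without iso-α-acids replicate 1 it was -0.38 (SE 0.063, limma adjusted p = 0.027), and over all fits leaving out 1 array the adjusted p ran from 0.027 to 0.143. Centring the arrays on their medians gave an adjusted p of 0.0469 and repeated quantile normalization one of 0.0346.

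Slc17a2 (NPT3), its neighbour, was at 10.19, 9.94, 10.10, 10.13 and 10.06 in control replicates 1 to 5. In iso-α-acids replicates 1 to 5 it was at 9.88, 9.64, 9.68, 9.84 and 9.53. Here replicate 1 was the highest array of its group, and the groups still did not overlap. The difference was -0.37 (SE 0.075, limma adjusted p = 0.09), and without replicate 1 it was -0.41 (SE 0.072, limma adjusted p = 0.034). Leaving out other arrays gave an adjusted p of up to 0.214. Slc17a4 had a difference of -0.35 (SE 0.17, limma adjusted p = 0.572) with overlapping groups, and Slc17a1 (NPT1) one of -0.02 (SE 0.087, limma adjusted p = 0.979).

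Slc22a7 (OAT2), a hepatocyte carrier of organic anions and of nucleotides such as cGMP, had the most negative difference of the 61. Its log2 level was 8.84, 8.26, 7.87, 8.52 and 8.58 in control replicates 1 to 5 and 6.25, 7.42, 7.51, 7.90 and 7.49 in iso-α-acids replicates 1 to 5. Replicate 1 was the lowest array by far, and the groups overlapped, since control replicate 3 lay just below iso-α-acids replicate 4. The difference was -1.10 (SE 0.32, 95% interval -1.82 to -0.37, limma adjusted p = 0.245). Without iso-α-acids replicate 1 it was -0.83 (SE 0.20, limma adjusted p = 0.115).

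Slc22a28, Slc22a26 and Slc22a30 are rodent relatives of the organic anion transporters and stand near each other on chromosome 19, with 1 protein-coding gene between neighbours. Their sequences are close to one another, and how far the probes tell them apart is unknown. Slc22a28 was at 10.57 to 10.96 in the control diet group and at 10.20 to 10.40 in iso-α-acids replicates 2 to 5, with replicate 1 at 9.32. Its difference was -0.73 (SE 0.20, limma adjusted p = 0.222). Without replicate 1 it was -0.53 (SE 0.082, limma adjusted p = 0.0215), and leaving out other arrays gave up to 0.358. Slc22a30 was also lowest in replicate 1, at 10.78 beside 11.30 to 11.61 on the other 9 arrays, with a difference of -0.30 (SE 0.13, limma adjusted p = 0.495). Slc22a26 went the other way. It was at 6.22 to 6.38 in the controls and 6.24 to 6.58 in iso-α-acids replicates 2 to 5, but at 8.16 in replicate 1, so that its difference of 0.45 (SE 0.35, limma adjusted p = 0.767) was 0.10 without that array.

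Slc10a2 (ASBT), known for taking up bile acids in the ileum and in bile duct cells, was at 7.25, 7.03, 8.52, 6.93 and 7.09 in control replicates 1 to 5. Iso-α-acids replicates 1 to 5 were at 6.60, 6.64, 6.89, 6.83 and 6.67. The groups did not overlap, but the gap was narrow apart from control replicate 3. The difference was -0.64 (SE 0.29, limma adjusted p = 0.538) with all arrays and -0.35 (SE 0.086, limma adjusted p = 0.218) without that control. Bile duct markers, of which 1 of the 6 measured varied, summed to 9.03 to 9.30 in the control and 9.05 to 9.24 in the iso-α-acids arrays, and their part in Slc10a2 was not tested. Slc10a5, an orphan relative found in liver, was at 9.32 to 9.48 in the controls and 9.04 to 9.28 in iso-α-acids replicates 2 to 5, and at 8.70 in replicate 1. Its difference was -0.32 (SE 0.11, limma adjusted p = 0.343). Slco2a1, the prostaglandin carrier, which in liver is found in the endothelium, had a difference of -0.12 (SE 0.059, limma adjusted p = 0.572). Markers of sinusoidal endothelial cells, of which 3 of the 8 measured varied, summed to 11.62 to 11.67 in the control diet group. They summed to 11.53 to 11.63 in iso-α-acids replicates 2 to 5 and to 11.69 in replicate 1. Their part in Slco2a1 was not tested. Slc47a1 (MATE1), which exports organic cations into bile, and the orphans Slc22a18 and Slc22a23 differed by 0.16, 0.09 and 0.002.

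Of 12 amino acid and peptide carriers, 10 had a negative difference, with a median of -0.16, and none passed limma's test with all arrays or without iso-α-acids replicate 1. In 2 the iso-α-acids arrays lay below all controls (7.3% of varying probe sets did), and without that array this held in 5 (12.7% of varying probe sets). Slc3a1, the heavy chain (rBAT) of the cystine and basic amino acid carrier, had the most negative difference of the class and one of its largest spreads. It was at 9.27, 9.04, 10.64, 8.62 and 9.97 in control replicates 1 to 5 and at 9.95, 8.60, 8.49, 8.60 and 7.97 in iso-α-acids replicates 1 to 5. Control replicate 3 and iso-α-acids replicate 1 were both high. The groups overlapped through iso-α-acids replicate 1 alone, and the other 4 iso-α-acids arrays lay below every control, by a narrow gap from control replicate 4. The difference was -0.78 (SE 0.48, limma adjusted p = 0.674) with all arrays. It was -1.09 (SE 0.42, limma adjusted p = 0.337) without iso-α-acids replicate 1 and -0.50 without control replicate 3.

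Slc1a2 (GLT-1) takes up glutamate and in liver is found in hepatocytes around the central vein. It was at 8.96 to 9.32 in the controls and at 8.64 to 8.90 in iso-α-acids replicates 2 to 5, with replicate 1 at 9.26. Its difference was -0.28 (SE 0.12, limma adjusted p = 0.503), and without replicate 1 it was -0.38 (SE 0.083, limma adjusted p = 0.0734). Slc7a2 (CAT2), which takes up arginine, was also highest in replicate 1, at 11.10, beside 9.88 to 10.12 in the other iso-α-acids arrays and 10.06 to 10.71 in the controls. Its difference was -0.16 with all arrays and -0.37 (SE 0.14, limma adjusted p = 0.344) without replicate 1. Slc7a8 (LAT2), which exchanges neutral amino acids, and Slc16a10 (TAT1), which carries aromatic ones, differed by -0.27 (limma adjusted p = 0.257) and -0.17 (limma adjusted p = 0.46).

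Slc15a3, a lysosomal carrier of histidine and small peptides that macrophages use, was at 7.92, 7.92, 8.25, 7.91 and 8.04 in control replicates 1 to 5. In iso-α-acids replicates 1 to 5 it was at 7.65, 7.71, 7.88, 7.84 and 7.80. The groups did not overlap, with little room between the lowest control and the highest iso-α-acids array. The difference was -0.23 (SE 0.076, limma adjusted p = 0.317), and it lay in the same direction as the macrophage markers given above, whose part in it was not tested. Slc66a2, a PQ-loop protein, had a difference of -0.27 (SE 0.11, limma adjusted p = 0.478), also without overlap, and was lowest in iso-α-acids replicate 1 at 8.60. The glutamine and neutral amino acid carriers Slc38a3, Slc38a2 and Slc38a4 differed by 0.06, -0.04 and -0.002. Slc43a1 (LAT3), just above the SD threshold, differed by -0.001.

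Slc15a5, a peptide carrier relative of unknown substrate, and Slc17a8 (VGLUT3), which loads glutamate into synaptic vesicles, shared a pattern that did not follow the diets. Slc15a5 was at 8.46, 8.91, 7.48, 8.63 and 8.63 in control replicates 1 to 5 and at 7.44, 8.82, 8.80, 8.54 and 8.85 in iso-α-acids replicates 1 to 5. Slc17a8 was at 8.15, 8.69, 7.06, 8.62 and 8.42 in control replicates 1 to 5 and at 7.12, 8.64, 8.54, 8.43 and 8.45 in iso-α-acids replicates 1 to 5. In both, control replicate 3 and iso-α-acids replicate 1 were the 2 lowest arrays. Their differences were 0.07 (SE 0.36, limma adjusted p = 0.979) and 0.05 (SE 0.40, limma adjusted p = 0.987). Both turned negative without control replicate 3, at -0.17 and -0.24. Slc15a5 was also just under 0 without iso-α-acids replicate 2, 3 or 5 (lowest -0.022). The same held for Slc17a8 without iso-α-acids replicate 2, 3, 4 or 5 (lowest -0.055). Over the 61 carriers, the departure of control replicate 3 from the other controls and that of iso-α-acids replicate 1 from its group had a Pearson's r of 0.448. This is a correlation across genes of the same arrays and was not tested.

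Beside Slc48a1, the class of metals and heme held carriers that differed in sign. Slc39a4 (ZIP4), which takes up zinc, was at 8.78, 8.84, 8.91, 8.78 and 8.85 in control replicates 1 to 5 and at 7.93, 9.13, 9.21, 9.26 and 9.23 in iso-α-acids replicates 1 to 5. Replicates 2 to 5 lay above every control and replicate 1 far below all. The difference was therefore 0.12 (SE 0.25, limma adjusted p = 0.941) with all arrays and 0.37 (SE 0.036, limma adjusted p = 0.00339) without replicate 1, and up to 0.986 in adjusted p when other arrays were left out.

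Slc41a2, a magnesium carrier, was at 9.31, 8.53, 9.54, 8.65 and 9.42 in control replicates 1 to 5 and at 9.05, 7.96, 8.36, 8.53 and 8.40 in iso-α-acids replicates 1 to 5. The controls were split, with replicates 2 and 4 near the iso-α-acids arrays. The difference was -0.63 (SE 0.27, limma adjusted p = 0.491). Slc49a4 (DIRC2), a lysosomal membrane carrier, was at 9.20 to 9.35 in the controls and 8.67 to 9.14 in the iso-α-acids arrays, without overlap, and differed by -0.29 (SE 0.085, limma adjusted p = 0.253). Slc30a10, which exports manganese into bile, was at 8.06 in iso-α-acids replicate 1 and at 8.93 to 9.32 on the other 9 arrays, with a difference of -0.35 (SE 0.20, limma adjusted p = 0.646). Slc30a5, which loads zinc into the Golgi, differed by 0.01.

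Slc4a4 (NBCe1), the sodium bicarbonate cotransporter, was the only one of 5 ion carriers without overlap. Its log2 level was 8.80, 8.88, 9.03, 8.87 and 8.95 in control replicates 1 to 5 and 9.85, 9.25, 9.32, 9.25 and 9.24 in iso-α-acids replicates 1 to 5. Replicates 2 to 5 lay within a narrow range above the controls, and replicate 1 lay higher still. The difference was 0.48 (SE 0.12, limma adjusted p = 0.176). Without replicate 1 it was 0.36 (SE 0.046, limma adjusted p = 0.0106, 1.29-fold), and leaving out other arrays gave up to 0.306. The phosphate carrier Slc20a2 differed by 0.04 (SE 0.013, limma adjusted p = 0.307). The sulfate carrier Slc26a1, the phosphate carrier Slc34a2 and the mitochondrial sodium calcium exchanger Slc8b1 differed by -0.03, -0.09 and -0.02. Slc8b1 was at 9.78 in iso-α-acids replicate 1, above every other array (8.62 to 9.16), and its difference without that array was -0.23 (SE 0.090, limma adjusted p = 0.347).

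None of the 5 carriers of nucleosides and vitamins passed or was free of overlap. Slc46a3, a lysosomal carrier, had a difference of -0.34 (SE 0.17, limma adjusted p = 0.567). Slc19a1, the reduced folate carrier, had one of 0.16 (SE 0.13, limma adjusted p = 0.793), which was 0.04 without iso-α-acids replicate 1, at 8.31 the highest array beside 7.55 to 7.80. Slc23a1 (SVCT1), the vitamin C carrier, was at 9.68 in replicate 1 and at 10.31 to 10.70 elsewhere, and differed by -0.08. The thiamine carrier Slc19a2 and the folate carrier Slc46a1 differed by 0.05 and -0.02. Among the 5 carriers of creatine, osmolytes and neurotransmitters none passed either. Slc16a12, which carries creatine, had a difference of 0.22 (SE 0.12, limma adjusted p = 0.641). Slc6a12 (BGT1), the betaine and GABA carrier, and its neighbour on chromosome 6, Slc6a13 (GAT2), differed by 0.17 (SE 0.079, limma adjusted p = 0.53) and -0.03 (SE 0.018, limma adjusted p = 0.599). The taurine carrier Slc6a6, the least varying member, differed by -0.001. Slc43a3, left without a class, differed by 0.03 (SE 0.073, limma adjusted p = 0.946) and by -0.02 without control replicate 3 or without iso-α-acids replicate 1.

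**Figure D4:**
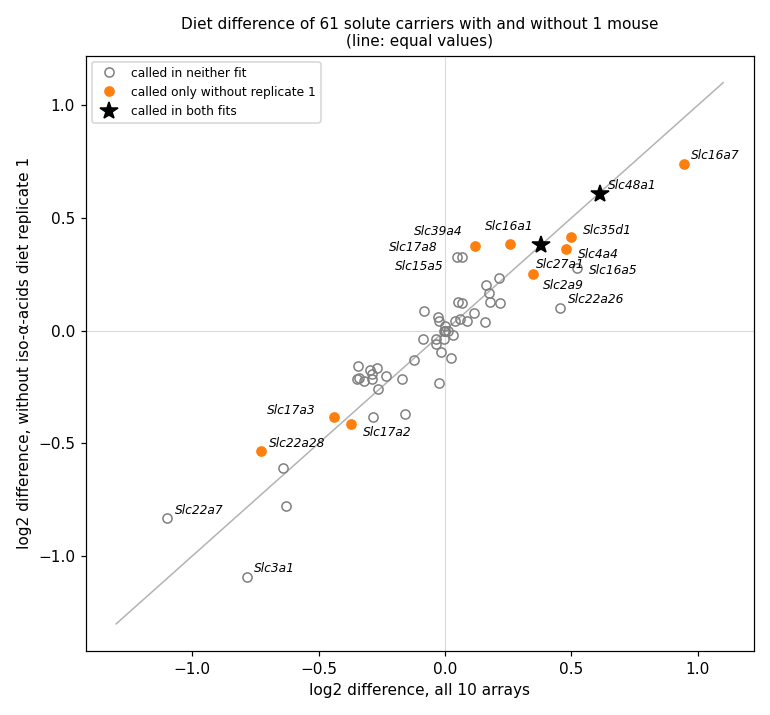
The log2 difference of each of the 61 carriers with all 10 arrays (horizontal) and without iso-α-acids replicate 1 (vertical), with the line of equal values. Stars mark the 2 carriers called by limma in both fits and filled orange points the 9 called only without that array, 6 of them higher and 3 lower.

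Genes of proteins that work with these carriers showed no call. Of the 8 measured ion pumps, chaperones and scaffolds that solute carriers depend on, 1 varied, Bsg, the chaperone of monocarboxylate carriers, with a difference of 0.009. Of 8 channels for water, glycerol and urea, 2 varied, Aqp8 (0.23) and Aqp11 (-0.05). Aqp8, a hepatocyte water channel, was at 8.09 in iso-α-acids replicate 1 and at a mean of 11.12 in replicates 2 to 5. Of 17 measured transcription factors known to act on transporter genes in liver, 13 varied, and 0 were called. Nr1i3 (CAR), a nuclear receptor for drugs and other foreign compounds, had a difference of 0.85 (SE 0.28, limma adjusted p = 0.33), with replicate 1 at 11.25 and replicates 2 to 5 at a mean of 9.93. The dioxin receptor Ahr had one of 0.37 (SE 0.12, limma adjusted p = 0.325). Nfe2l2, which binds antioxidant response elements, and its partner Keap1 were flat.

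Rank products, the study's own test, was rerun here at an FDR under 0.05. Over all 22206 probe sets it called 826 upregulated and 707 downregulated, and its calls need not be those of the paper. In this rerun 15 carriers were upregulated (24.6% of the members, against 33.5% of varying probe sets) and 22 downregulated (36.1%, against 28.4%). The 22 were spread over the organic anion (9), amino acid (7), metal (3), fatty acid and acetyl-CoA (1), carboxylate (1) and vitamin (1) classes. This ranking ran over all 22206 probe sets, 89.0% of them flat, while the members were chosen as not flat. Very small differences were among the calls. Slc33a1 was among the 22 at -0.004 with overlapping groups (rank products FDR 0.030). Slc20a2 was among the 15 at 0.04, also with overlap (rank products FDR 0.028). With flat probe sets left out of the ranking, a choice made after seeing the data, 1 was upregulated and 5 downregulated. The share of all varying probe sets called in that ranking was not worked out, so neither number can be set against a background.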

How the data were processed

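Clariom S Mouse Arrays measured the liver RNA of 10 mice, 5 for each diet as GEO's labels group them. The deposited values, read as log2, are the authors' own: per the paper's methods, scanner files were quantile normalized and summarized with qFARMS in R. Versions and settings were not given in the sources used here, nor was the log base. The values were used as deposited. Gene symbols came from the platform annotation (19572 probe sets with 1 symbol, 2634 with none, 0 with several), and all 61 member identifiers were found in a RefSeq gene table of GRCm38.p6, with 0 symbols changed, used for names, promoter sequences and neighbouring genes.

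The diets were compared with limma 3.58.1 in R 4.3.3 (lmFit, eBayes without trend, prior degrees of freedom 0.348, two-sided) over all 22206 probe sets, with Benjamini-Hochberg adjustment over all of them and a threshold of 0.05. Only the members' values are given. Rank products, the test of the study, was rerun with all 120 pairings of arrays, their median and a gamma p. Both were also run on simulated data with no array set apart like iso-α-acids replicate 1, and the outcome is not given here. Python 3.11.15 was used for tables and motif searches. The members, substrate classes and marker lists were chosen with earlier results of these data known. The 24 members followed most closely were all those that passed limma, the 12 with the largest absolute difference, those with the largest rise and fall in each class, and the 3 in which iso-α-acids replicate 1 departed most. The others are given more briefly, except that Slc17a2, Slc16a1, Slc39a4, Slc15a3 and Slc2a2 were taken up in more detail after their values had been seen. Where nothing states otherwise, each array is a separate mouse, and only 5 arrays a group limit the precision. The alternatives were leaving out each array, centring, repeated quantile normalization, leaving out the dimmest 25% of probe sets, varying probe sets only, array weights, eBayes with a trend or robust, a block for the replicate number, 1 probe set per gene, the methods' t-test, a threshold of 0.01 and a minimum difference of 0.5.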

Additional observations from a re-analysis of the deposited data

Results flagged for a closer look

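Of 24 carriers with 2 diet groups each, 48 groups of 5 arrays were examined for a lone array, by the gap of the highest or lowest array to its nearest neighbour as a share of the group's range. The share was above Dixon's 95% critical value of 0.71 in 13 groups, where chance flags about 1 in 20. In 9 of the 13 the lone array was iso-α-acids replicate 1. It was the highest of its group in Slc16a5 (0.907), Slc4a4 (0.872), Slc22a26 (0.819), Slc2a9 (0.819), Slc16a7 (0.761) and Slc19a1 (0.725). It was the lowest in Slc17a8 (0.864), Slc22a28 (0.816) and Slc15a5 (0.786). In the control diet group, replicate 3 was the highest in Slc10a2 (0.799) and Slc16a5 (0.735) and the lowest in Slc43a3 (0.864), and replicate 5 was the highest in Slc16a6 (0.864). Some of the 24 carriers were chosen for the departure of iso-α-acids replicate 1, so the number of flags for that array is partly fixed by the choice.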

How the results depend on the processing

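Slc48a1 was called higher under every alternative run with limma, and Slc27a1 under every one but the replicate block and the minimum difference of 0.5. The number called higher, 2 in the main fit, was 2 to 8 when each array was left out in turn, with 8 only without iso-α-acids replicate 1. It was 6 over varying probe sets only, 8 over these without that array, 15 by rank products, 1 by rank products over varying probe sets only and 1 with a minimum difference of 0.5. The number called lower, 0 in the main fit, was 0 to 3 when each array was left out, with 3 only without iso-α-acids replicate 1. It was 6 over varying probe sets only and 12 over these without that array, 22 by rank products and 5 by rank products over varying probe sets only. It was 1 with arrays centred, quantile normalized again, weighted or with the dimmest 25% of probe sets left out, in each case Slc17a3 (adjusted p = 0.0469, 0.0346, 0.0402 and 0.0432 from limma). Restricting the probe sets tested to varying ones lowers the number of p-values adjusted over and also changes the moderated variances (the SE of Slc48a1 went from 0.0204 to 0.0242). How much each contributes, and the causes of the other shifts, were not tested. The settings without flat probe sets that combine 2 choices were added after seeing the data. The share of all varying probe sets called in the settings over varying probe sets only was not worked out. The counts of members in these settings thus have no background beside them.

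With the replicate number as a block, 1 was called higher, Slc48a1 (adjusted p = 0.00592 from limma), while Slc27a1 had an adjusted p of 0.0772, and 0 were called lower. The deviations of same-numbered arrays correlated at -0.206 to 0.233, over 0.1 in 1 of 5 pairs, so the numbers were not taken to pair mice.

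For the 24 carriers followed most closely, the fits counted were those leaving out 1 array, centring and repeated quantile normalization. Varying probe sets only, the replicate block, eBayes with a trend or robust, and array weights were counted too. Each value here is 1 carrier under 1 alternative. Of these, 380 kept direction and side of the threshold, 16 passed though the carrier did not in the main fit, and 1 was lost. Some carriers hold several of the 16, such as Slc17a3. Among these 24, the 11 values that reversed belonged to Slc15a5, Slc17a8 and Slc43a3, none of them called. Over the fits that left out 1 array, their differences ran from -0.17 to 0.33, from -0.24 to 0.32 and from -0.018 to 0.066. Over all 61 carriers, 14 turned sign in at least 1 of these 10 fits, the other 11 outside the 24, with differences of up to 0.21 in size with all arrays (Slc2a2). Outside the 24, Slc17a2, Slc16a1 and Slc39a4 passed without iso-α-acids replicate 1, and Slc17a2, Slc7a8 and Slc49a4 over varying probe sets only. With 5 arrays a group, and flat probe sets at 89.0% of the table, a difference that did not pass is not shown to be absent.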
